A study of Homo sapiens with 8 samples.

Results

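Untransduced K562 dCas9-KRAB cells were described from 2 of the 8 libraries of a study of IRF2, taken by their treatment label, and every one of the 35805 genes listed for these libraries was considered. K562 is a line from a chronic myeloid leukaemia in blast crisis that carries the BCR-ABL1 fusion and has erythroid features. All 4 groups, of 2 libraries each, carry dCas9-KRAB, a nuclease-dead Cas9 fused to a repressor domain, so no library shows K562 without it. The untransduced group received no guide, and the others received sgAAVS1, a control guide to the AAVS1 site, or sg1-IRF2 or sg2-IRF2, each a guide to IRF2, with RNA harvested 7 days after transduction. The sources used here give no promoter for dCas9-KRAB, do not say whether the cells are 1 clone, and do not say whether a group's libraries came from separate cultures, so p-values measure only the spread between libraries.

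Each deposited value is the log2 of reads per gene over 1 factor per library and is not corrected for gene length. Whole reads were recovered from it, 6303033 in replicate 1 and 6320046 in replicate 2 of untransduced cells and 5248359 to 6738348 in the other libraries. Levels were compared between genes only as reads per kilobase of exon scaled to the library's recovered reads (RPKM). The replicates were close: of 10164 genes with a mean of 100 or more reads, 10160 lay under 1.5-fold apart. Outside the mitochondrially encoded genes, the chi-square between replicates was below that of counting noise in all 5 classes by reads per exonic base. Whether they are 1 culture sequenced again cannot be told from these values, and both were kept as n = 2.

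Erythroid cells use the factors GATA1, TAL1 and KLF1 to switch on globins, haem synthesis and membrane proteins, and embryonic and fetal globins come before the adult beta globin. Interferons signal through receptors, JAK kinases and STAT proteins to genes of antiviral defence and antigen presentation, and many of these genes keep a basal level without interferon. IRF1 and IRF2 bind repeats of GAAA in such promoters, and MHC class I presents peptides that the immunoproteasome cuts and TAP carries. K562 is known for low MHC class I and for a homozygous deletion on the short arm of chromosome 9 that takes CDKN2A.

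Promoter sequences show how the interferon genes that were read, and those that were not, can hold the same letters. The windows came from RefSeq (GRCh38.p14), covered the 250 bases before the start, were searched for GAAANNGAAA on both strands, and are printed 5′ to 3′ on the gene's strand with the match in capitals (TTTC first where it lies on the other strand). The first 4 genes had reads in untransduced cells and a higher level there than with the IRF2 guides, the next pair had a high level that was not called against those guides, and the last 4 had no reads.
LGALS3BP: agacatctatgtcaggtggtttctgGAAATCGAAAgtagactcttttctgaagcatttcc
TAP2: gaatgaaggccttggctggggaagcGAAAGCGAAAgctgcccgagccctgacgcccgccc
SHFL: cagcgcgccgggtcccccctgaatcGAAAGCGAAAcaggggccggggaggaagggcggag
OAS3: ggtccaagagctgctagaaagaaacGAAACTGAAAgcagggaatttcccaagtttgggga
IFITM1: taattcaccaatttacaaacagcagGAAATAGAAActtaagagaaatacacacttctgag
BST2: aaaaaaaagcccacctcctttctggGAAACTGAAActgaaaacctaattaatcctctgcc
IFI44: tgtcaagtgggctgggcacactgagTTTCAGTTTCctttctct
GBP1: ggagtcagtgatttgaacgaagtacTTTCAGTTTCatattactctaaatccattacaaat
EPSTI1: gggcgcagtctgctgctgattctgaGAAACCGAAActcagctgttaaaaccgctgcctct
CXCL10: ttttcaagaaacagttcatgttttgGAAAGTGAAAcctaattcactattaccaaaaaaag

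These stretches lie at chr17:78979947-78980006 (LGALS3BP, minus strand), chr6:32838763-32838822 (TAP2, minus), chr19:10086249-10086308 (SHFL, plus) and chr12:112938306-112938365 (OAS3, plus). Those of IFITM1 and BST2 lie at chr11:313975-314034 (plus) and chr19:17405726-17405785 (minus). Those without reads lie at chr1:78649746-78649788 (IFI44, plus), chr1:89065301-89065360 (GBP1, minus), chr13:42992257-42992316 (EPSTI1, minus) and chr4:76023684-76023743 (CXCL10, minus). The match was in 3.07% of the 27305 promoters of the table and in 24 of the 42 interferon-stimulated genes found there. A match is a description of letters, not a site.

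Erythroid promoters were searched for AGATAA, the core letters that GATA factors bind, on both strands. It was in 9.37% of all promoters, in 6 of 13 erythroid membrane and blood group genes, 2 of 9 haem synthesis genes, 1 of 9 erythroid factors, 1 of 2 globins, and 0 of 5 in both the iron and the late erythroid list. Of megakaryocyte genes 2 of 11 held it. ALAS2, TAL1 and RHD are shown as a marker gene, a lineage factor and a blood group gene that hold it.
ALAS2: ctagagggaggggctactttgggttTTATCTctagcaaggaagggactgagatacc
TAL1: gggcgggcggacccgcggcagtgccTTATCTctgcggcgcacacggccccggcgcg
RHD: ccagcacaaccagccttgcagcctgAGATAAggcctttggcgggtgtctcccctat

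The 3 stretches lie at chrX:55031074-55031129 (ALAS2, minus strand), chr1:47232340-47232395 (TAL1, minus) and chr1:25272408-25272463 (RHD, plus).

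Reads were found in both untransduced libraries for 16987 genes, 47.4% of those listed, and in neither for 17074. By mean reads, 4845 genes lay above 0 and under 10, 3722 from 10 to under 100, 8547 from 100 to under 1000, and 1617 at 1000 or more. Protein-coding genes took 96.8% of the reads. Of 19457 listed protein-coding genes, 11959 (61.5%) had a mean of 10 or more reads and 5530 (28.4%) had none, and their median level was 3.91 RPKM.

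Ranked by the deposited value, with XIST and Y-linked genes left out of the ranking shown, the list was led by long transcripts. AHNAK, a very large scaffold protein, was first with log2 values of 10.54 and 10.66, and MALAT1, a nuclear non-coding RNA, was second with 10.58 and 10.53. The next 18 genes after these were UBR4, MACF1, NEAT1, DYNC1H1, PRKDC, SRRM2, FLNA, HSPG2, KMT2C, HUWE1, PRRC2C, KMT2D, KMT2A, SPEN, SON, FASN, CBX5 and MKI67. They include large cytoskeletal and motor proteins (MACF1, DYNC1H1, FLNA), histone methyltransferases (KMT2A, KMT2C, KMT2D), fatty acid synthase (FASN) and the proliferation marker MKI67. Their median exonic length was 16398.5 bases, against 4588 for genes with 10 or more reads, and together they held 1.71% of the reads. Over 13610 genes with 10 or more reads and a length, the deposited value and log2 exonic length had Pearson's r of 0.470 and Spearman's rho of 0.476, across genes of the same libraries.

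Per length the order was another one, and MALAT1 was the 1 gene in both lists of 20. RN7SL1, the RNA of the signal recognition particle, led with 374 ± 20.6 RPKM (SD, n = 2), followed by its copy RN7SL2 and by RPPH1 and RMRP, the RNAs of RNase P and RNase MRP. Mitochondrially encoded genes filled 11 of the 20 places, led by MT-CO2 at 210 ± 21.04 RPKM (SD, n = 2). FTL, the ferritin light chain that stores iron, had 185 ± 2.07 RPKM, the linker histone HIST1H1C 185 ± 2.61, and the fetal globin HBG2 153 ± 5.64 (SD, n = 2 each). SCARNA2, MT-CO3, MT-ND4, MT-ATP8, MT-ATP6, MT-CO1, MT-ND4L, MT-ND2, MT-ND6, MT-CYB and MT-ND1 completed the list. RN7SL1 and RN7SL2 are near-identical and their reads could be split by the counting, for which no tool is named in the sources used here.

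Few genes passed 1 read per exonic base. Of 11933 protein-coding genes with 10 or more reads and a length, 11 did, 9 of them mitochondrially encoded and the others HIST1H1C and FTL, and the highest had 1.32. The median gene with 10 or more reads had 0.0701 reads per exonic base and the 99th percentile was 0.408. Beside this, the chi-square per gene between replicates, which counting noise alone sets at 1, was 0.910 below 0.05 reads per base, 0.798 and 0.719 in the next classes up, 0.656 from 0.2 to under 0.5, and 0.874 at 0.5 or more (60 genes). Mitochondrially encoded genes were left out of these classes. No source used here says how duplicate reads were handled, and the part of duplicates in these levels was not tested.

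Mitochondrially encoded genes were the exception to the close replicates, with a chi-square per gene of 6.49 between them. All 13 were higher in replicate 1, where they held 0.205% of the reads, than in replicate 2, with 0.183%. The other 6 libraries spanned 0.185% to 0.217%.

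**Figure D1:**
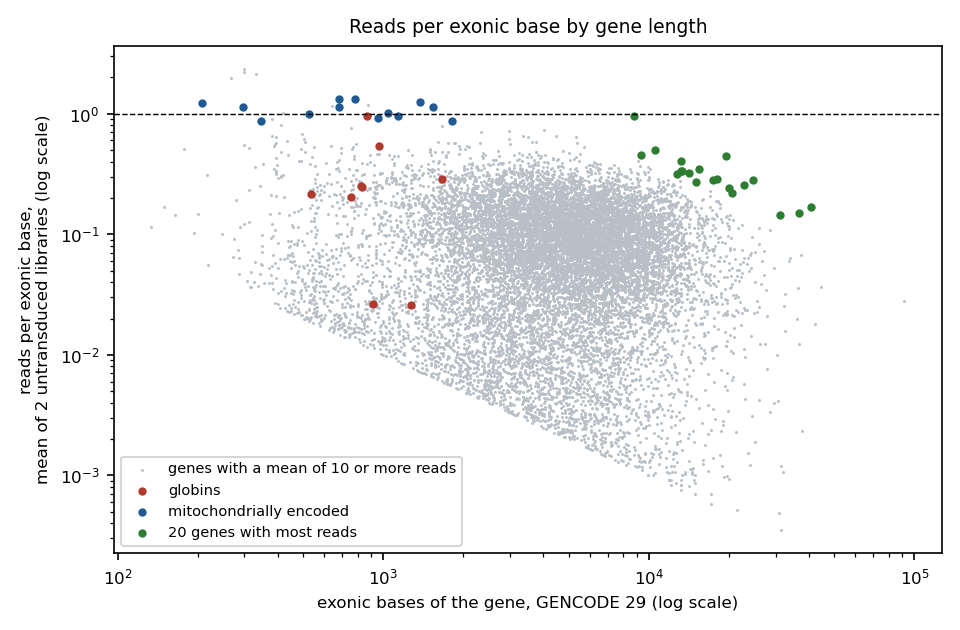
Reads per exonic base (mean of the 2 untransduced libraries, log scale) against exonic length in bases (log scale), 1 point per gene with a mean of 10 or more reads, with globins, mitochondrially encoded genes and the 20 genes with most reads in colour and a dashed line at 1 read per base. The 20 genes with most reads are all 8829 bases or longer, and the highest protein-coding value is 1.32 reads per base.

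The label was checked against erythroid markers, and all 3 were present at similar values in both libraries. GATA1, the master factor of the lineage (chrX:48786554-48794311 in hg38), had 712 and 727 reads, log2 values of 6.98 and 7.05, and 76.0 ± 0.975 RPKM (SD, n = 2). HBZ, the embryonic alpha-like globin (chr16:152687-154503), had 156 and 153 reads and 32.4 ± 0.507 RPKM. ALAS2, the erythroid enzyme of the first step of haem synthesis (chrX:55009055-55031064), had 366 and 395 reads and 28.2 ± 1.47 RPKM. In bulk RNA, fewer cells of a type and less RNA per cell cannot be told apart.

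Globins were those of embryonic and fetal life. HBG2 had 815 and 861 reads, HBG1 475 and 476, and embryonic HBE1 501 and 528, which is 153, 45.4 and 84.8 RPKM. The merged exonic length was 869 bases for HBG2 and 1659 for HBG1, so their RPKM lie further apart than their reads. Adult beta globin HBB had 0 and 1 read, and adult delta globin HBD had 35 and 31 reads (4.12 RPKM). The alpha globins HBA1 and HBA2 had 38.7 and 40.04 RPKM, theta globin HBQ1 33.8 and mu globin HBM 4.15. All 10 listed globins thus had at least 1 read, and 9 had a mean of 10 or more. HBG1 and HBG2, and HBA1 and HBA2, are near-identical pairs, and the gene models of HBE1, HBG1, HBG2, HBD, HBZ and HBM share exonic bases with a neighbour on the same strand, so the split within them is uncertain.

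Haem and iron genes were read throughout, with 1 exception. All 12 haem synthesis genes had 100 or more reads, with a list median of 23.6 RPKM. They ran from 4.97 RPKM for UROS, over 9532 merged exonic bases, to 42.2 for UROD, an enzyme in the middle of the pathway. The mitochondrial iron importer SLC25A37 had 2117 and 1992 reads (39.96 RPKM), and the transferrin receptor TFRC had 2466 and 2534 (50.2 RPKM). The ferritin heavy chain FTH1 had 80.7 RPKM. HMOX1, which breaks haem down, had no reads in either library, a count that allows up to 3 reads over both, or 0.0988 RPKM.

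The factors behind this programme were present, with 1 absent. Of 11 erythroid transcription factors, 10 had 100 or more reads, with a list median of 36.9 RPKM. KLF1, the activator of adult beta globin, had 502 and 517 reads (50.1 RPKM), NFE2 768 and 789 (49.96), TAL1 1305 and 1348 (36.9) and MYB 1479 and 1399 (41.5). BCL11A, the repressor of fetal globins, had 0 reads in both libraries, which allows up to 0.00935 RPKM over 25422 merged exonic bases. Fetal stage regulators were mostly high. The RNA-binding protein IGF2BP1 had 2869 and 2892 reads (50.1 RPKM), LIN28B, which blocks let-7 maturation, 888 and 854 (23.0), and HMGA2 none.

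Membrane genes were uneven. RHAG, the Rh-associated glycoprotein, had 931 and 944 reads (55.2 RPKM), the skeleton adaptor ANK1 31.1 RPKM and glycophorin E 25.2, with glycophorin A at 413 and 405 reads (15.1 RPKM). The proteins of the mature red cell were low: SLC4A1, the band 3 anion exchanger, had 42 and 44 reads (1.33 RPKM) and EPB42, protein 4.2, had 17 and 21 (0.990). ACKR1, the Duffy antigen, had none. Of 19 genes on the list, 18 had 10 or more reads and the median was 15.1 RPKM.

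Late erythroid genes were also mixed. HEMGN, a nuclear protein of erythroid cells, had 852 and 846 reads (56.2 RPKM), the biliverdin reductase BLVRB 496 and 517 (47.5) and the alpha globin chaperone AHSP 57 and 64 (17.1). Carbonic anhydrase CA1 had 42 and 35 reads (1.5 RPKM), while CA2 and ALOX15, the reticulocyte lipoxygenase, had none. The list median over 10 genes was 14.1 RPKM, against 3.91 over all protein-coding genes.

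**Figure D2:**
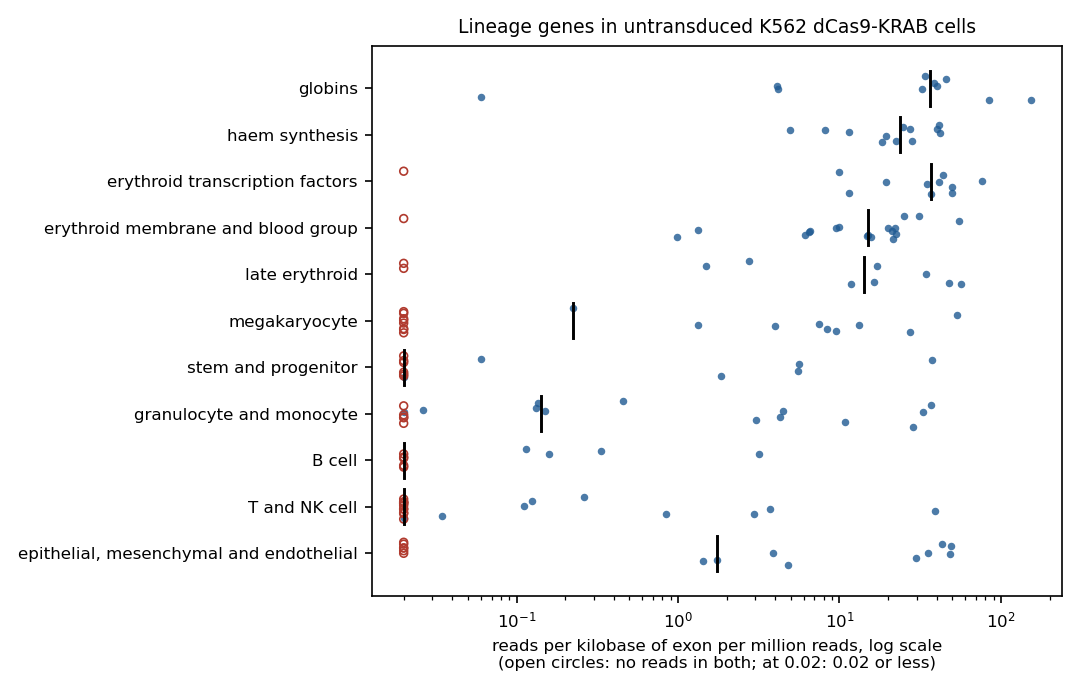
Level of each list member in RPKM (mean of the 2 untransduced libraries, log scale), 1 row per gene list, with the list median as a bar and genes without reads as open circles at 0.02. The medians of globins (36.3), haem synthesis (23.6) and erythroid factors (36.9) lie far to the right of those of megakaryocyte (0.225) and granulocyte and monocyte genes (0.143).

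Genes of other blood lineages were read in part. Of 17 megakaryocyte genes, 8 had no reads, among them GP1BA, GP9, PF4, PPBP, VWF, FLI1 and SELP, which code for platelet adhesion proteins, platelet chemokines and a lineage factor. Yet 9 had a mean of 10 or more reads, 7 of them 100 or more. ITGA2B, the platelet integrin CD41, had 449 and 477 reads (13.2 RPKM) and RUNX1 938 and 926 (9.48). GP1BB had 498 and 556 reads (53.8 RPKM), but its exons overlap those of a read-through gene with SEPT5 on the same strand.

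Of 12 stem and progenitor genes 6 had no reads: FLT3, PROM1, HOXA9, HOXA10, ERG and THY1. CD34 had 0 and 1, HLF 4 and 1, and MEIS1 129 and 125. GATA2, an early factor that GATA1 replaces as erythroid cells mature, was the highest of the list at 1034 and 1066 reads (37.3 RPKM). The stem cell factor receptor KIT had 201 and 187 reads (5.53 RPKM) and MECOM 328 and 320 (5.64).

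Myeloid genes were uneven. SPI1, the PU.1 factor, had 480 and 477 reads (36.6 RPKM), lysozyme LYZ 371 and 361 (32.9), CD68 405 and 387 (28.7) and CD33 425 and 389 (10.8). ELANE, CTSG, CD14, S100A8 and S100A9 had no reads, MPO had 5 and 1, and CEBPA 0 and 5, CEBPE 3 and 6. The list median over 18 genes was 0.143 RPKM.

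Lymphoid genes were at or near 0, with few exceptions. Of 9 B cell genes, MS4A1, PAX5, EBF1, BLK and IGJ had no reads, and 2 had a mean of 10 or more, the highest at 3.18 RPKM. Of 20 T and NK cell genes 11 had none, among them CD8A, CD2, LCK and GATA3, and 3 had a mean of 10 or more. CD3D, a chain of the T cell receptor complex, had 224 and 232 reads (38.9 RPKM), CD3G 100 and 80 (3.72) and CD3E 0 and 4. Epithelial and mesenchymal genes were also read in part: EPCAM had 449 and 498 reads (29.8 RPKM), KRT18 991 and 1001 (49.0), KRT19 618 and 658 (43.3) and VIM 1570 and 1567 (48.2), while CDH1, KRT5, COL3A1, CDH2, CDH5 and ALB had none.

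A stretch of chromosome 9 around CDKN2A held no read in any of the 8 libraries. It spanned chr9:20683304-26805862 in hg38, 6.12 Mb and 46 consecutive listed genes, 26 of them protein coding. CDKN2A and CDKN2B, inhibitors of the cell cycle kinases, the methionine salvage enzyme MTAP, KLHL9, DMRTA1, ELAVL2, IZUMO3 and TUSC1 were all at 0. So were IFNB1, IFNW1, IFNE and the 13 listed IFNA genes, the type I interferons, which most cells do not transcribe without infection. A count of 0 allowed up to 0.0163 RPKM over 14617 merged exonic bases for MTAP, which most tissues express. For CDKN2A it allowed up to 0.0549, and the median protein-coding gene had 3.91.

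The edges of the stretch fell between genes with reads. Its first gene, FOCAD-AS1, lies inside FOCAD, which had 28 and 34 reads (0.489 RPKM), and MLLT3, the next gene out, 1 and 0. Beyond these RPS6, a ribosomal protein, had 44.0 RPKM and HAUS6 16.7. On its proximal side CAAP1 had 218 and 212 reads (10.8 RPKM) and PLAA 390 and 370 (12.5). Further out on the distal side CNTLN, SH3GL2 and ADAMTSL1 had no reads either. The files hold 1 value per gene, so where the reads of FOCAD fall was not seen.

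Long stretches without reads were not rare in these libraries. By number of genes the 9p stretch was the 5th, after those of the T cell receptor alpha locus on chromosome 14 (122 genes), olfactory receptors on chromosome 11 (52), keratins on chromosome 17 (49) and a stretch of chromosome 7 (48) at the T cell receptor beta locus, and by span it was the 7th. Those ahead of it by number of genes hold gene families of single tissues or of rearranged receptors. By span the longest, 22.5 Mb of chromosome 1, held 0 protein-coding genes. Reads alone do not tell a lost gene from a silent one.

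**Figure D3:**
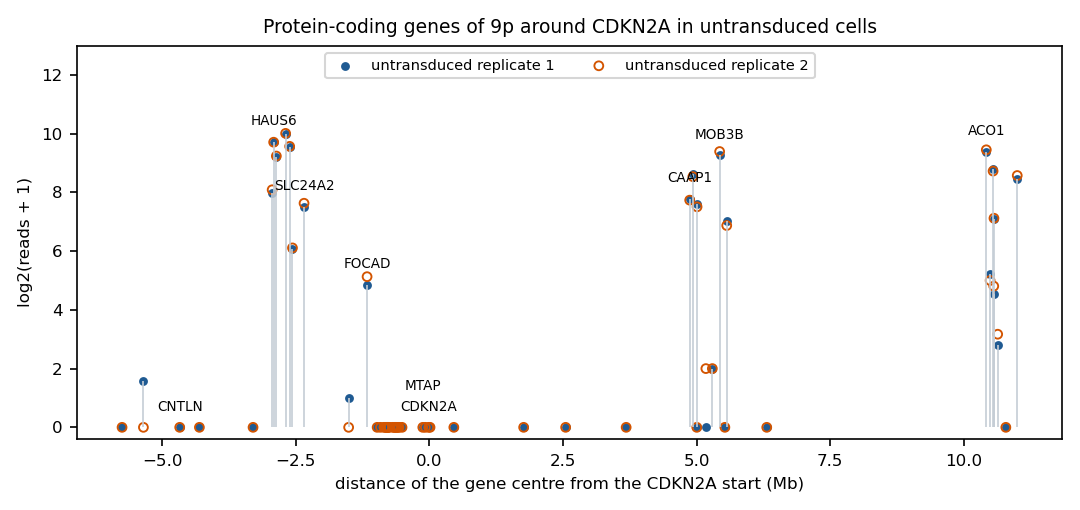
Reads of protein-coding genes as log2(reads + 1) in each untransduced library against the distance of the gene's centre from the start of CDKN2A in Mb. Every gene from just beyond FOCAD to just before CAAP1 lies at 0 in both libraries, with genes over 200 reads on either side.

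Interferon ligands outside the 9p stretch were also without reads. IFNG, IFNL1, IFNL2, IFNL3 and IFNK, which lies on 9p beyond CAAP1, had none in either library. The receptors and their kinases were read: IFNAR1 had 773 and 800 reads (19.8 RPKM), IFNAR2 347 and 357 (12.1), IFNGR1 480 and 475 (23.1) and JAK1 1241 and 1253 (31.3, the highest of this list). IFNLR1, the lambda receptor chain, had none. The signal carrier STAT2 was present (961 and 943 reads, 24.7 RPKM), and USP18, a feedback inhibitor, had 0 and 3.

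Among interferon regulatory factors, IRF2 (chr4:184387713-184474580) had 271 and 268 reads, log2 values of 5.58 and 5.61 and 13.7 ± 0.134 RPKM (SD, n = 2). IRF1, the activator that binds the same letters, had 162 and 164 reads (3.31 RPKM), IRF3 455 and 475 (19.4), IRF9 326 and 309 (13.3) and IRF7 69 and 73 (4.28). IRF4 and IRF8, factors of immune cells, had none. Sensors of foreign nucleic acid were uneven: MAVS had 1683 and 1648 reads (22.4 RPKM), STING1, listed as TMEM173, 412 and 409 (16.9), and the RNA sensor DDX58 36 and 31 (1.22). CGAS (MB21D1), TLR3, TLR7, TLR8 and ZBP1 had none.

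Interferon-stimulated genes fell into high, low and unread ones. The membrane proteins IFITM1 (66.3 RPKM), IFITM2 (64.1), IFITM3 (45.4) and BST2 (41.3), which hinder virus entry or release, were the highest of the 55 listed. TRIM25 had 19.6 RPKM, the kinase EIF2AK2 (PKR) 16.4 and the ubiquitin-like ISG15 12.5, with 62 and 87 reads. No reads were found for 12: IFI44, IFI44L, IFIT5, OAS1, OAS2, OASL, HERC5, XAF1, EPSTI1, GBP1, CXCL10 and IDO1. MX1 had 2 and 0 reads, IFIT1 2 and 1, and RSAD2 22 and 22, where its exons overlap CMPK2 on the other strand. In all, 38 had a mean of 10 or more reads and the list median was 1.49 RPKM. IFITM1 and IFITM2 share exonic bases in the files' gene models.

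Antigen presentation was read at its loading end and low at the heavy chains HLA-B and HLA-C. HLA-B had 14 and 12 reads, HLA-C 25 and 22, and HLA-F and HLA-G none in either library. No exonic length was assigned to HLA-B and HLA-C, so their reads are not corrected for length. HLA-E, a ligand of NK cell receptors, had 717 and 751 reads (39.1 RPKM) and the light chain B2M 641 and 652 (16.8). The RPKM of HLA-E and B2M rest on merged exonic lengths and lie further apart than their reads. The transactivator NLRC5 had 2 and 4. HLA genes are polymorphic and alike, and reads of a class I gene could be lost or split in mapping.

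The peptide supply genes were all read, at levels from 0.103 to 77.1 RPKM. The chaperones CALR (77.1 RPKM), CANX (63.0) and TAPBP (37.5) and the constitutive proteasome subunits PSMB5 (40.2), PSMB6 (25.6) and PSMB7 (39.0) stood high. Their immunoproteasome counterparts PSMB8 and PSMB9 had 8 and 15, and 3 and 1 reads (0.608 and 0.103 RPKM), while PSMB10 had 131 and 145 (11.8). The peptide transporter was uneven, with TAP2 at 279 and 259 reads (6.67 RPKM) and TAP1 at 53 and 59 (1.85). MHC class II was at or near 0: 10 of 15 genes had no reads, the transactivator CIITA had 1 and 6, and the invariant chain CD74 10 and 10.

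Setting these basal levels beside cells with the IRF2 guides shows which of them lay above those of IRF2-targeted cells. The comparisons below share the untransduced libraries, and each used limma's moderated test, two-sided, on 14665 genes, with Benjamini-Hochberg adjusted p under 0.05 as a call. Against both IRF2 guides 366 genes were called (2.5%), 222 higher (1.51%) and 144 lower (0.982%) in untransduced cells. IRF2 itself had log2 values of 5.58 and 5.61 in untransduced cells and a mean 4.57 ± 0.18 (SE) above both guides (adjusted p = 3.74e-16), with 4, 8, 22 and 21 reads in their 4 libraries. Without an untransduced library the count of calls was 112 or 106, without an sg2-IRF2 library 223 or 236, and without an sgAAVS1 library, which enters only through the shared spread, 823 or 818.

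Of 37 interferon-stimulated genes tested, 21 were higher in untransduced cells than with the IRF2 guides and 1, SP100, was lower. Over all genes tested the shares were 1.51% and 0.982%. The list was chosen with this contrast known, so its direction is no independent evidence. The list's median difference was 0.62, against -0.01 over all genes tested. Against sgAAVS1 the list median was -0.09, and 1 of 37 was called, GBP2, where 4.75% of all genes tested were. Without untransduced replicate 1, 16 of the 21 were still called, without untransduced replicate 2, 13, and with no mean-variance trend, 12. The call of SP100 ended in each of these settings, and also without any single sg1-IRF2 or sg2-IRF2 library.

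The called genes were mostly of low level. LGALS3BP, a secreted glycoprotein, had 50 and 48 reads in the untransduced libraries, against 61 and 84 for sgAAVS1 and 0, 1, 2 and 6 for the IRF2 guides. It differed by 4.71 ± 0.40 (SE, adjusted p = 3.77e-09), a value that rests on how genes without reads are listed. DTX3L, a ubiquitin ligase, had 326 and 295 reads, against 268 and 395 for sgAAVS1 and 30, 31, 56 and 55 for the IRF2 guides (2.87 ± 0.10, adjusted p = 4.49e-17). OAS3, which makes oligoadenylates that activate RNase L, had 81 and 74 reads against 4, 8, 15 and 11 (3.14 ± 0.25, adjusted p = 8.32e-10), and IFI6 had 32 and 39 against 2, 1, 6 and 7 (3.50 ± 0.38, adjusted p = 5.22e-07). In each of these genes both untransduced libraries lay above all 4 libraries with an IRF2 guide, and none of them was called against sgAAVS1. DTX3L shares exonic bases with PARP9 on the opposite strand, and no source used here gives the strand setting of the counting.

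The genes with the highest levels were mostly not called. IFITM1 (448 and 456 reads; 466 to 491 with the IRF2 guides) differed by -0.13 ± 0.06 (adjusted p = 0.32), BST2 by -0.13 ± 0.07 (adjusted p = 0.41) and IFITM2 by -0.04 ± 0.05 (adjusted p = 0.86). These were not called, which does not show that they are alike. EIF2AK2 was the exception, with 1123 and 1104 reads against 493 to 643 (0.91 ± 0.05, adjusted p = 2.50e-12).

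The peptide supply list was called in part. Of 15 genes tested 7 were higher in untransduced cells than with the IRF2 guides, and none was lower. Over all genes tested 1.51% were higher. This list too was chosen with earlier results of these data known, so its direction is no independent evidence. ERAP2, a peptide-trimming aminopeptidase, had 55 and 73 reads against 4, 4, 7 and 5 (3.66 ± 0.28, adjusted p = 3.76e-10), and TAP1 had 53 and 59 against 6, 6, 10 and 6 (2.99 ± 0.26, adjusted p = 4.88e-09). TAP2 (1.77), ERAP1 (1.26), the proteasome activator PSME1 (1.08), PSMB10 (0.57) and TAPBP (0.28) were the others, and the call of PSMB10 ended without either untransduced library. CALR, CANX, PDIA3 and the constitutive subunits PSMB5, PSMB6 and PSMB7 lay between -0.04 and 0.05 and were not called. The list median was 0.15, against -0.01 over all genes tested. Set against sgAAVS1, the list median was -0.05, with 0 of 15 called higher and 1, TAP2, called lower in untransduced cells. That call of TAP2 ended without either untransduced library.

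Among the class I chains, HLA-E (0.10 ± 0.05, adjusted p = 0.37) and B2M (0.02 ± 0.06, adjusted p = 0.94) were not called. HLA-C was called higher (2.66 ± 0.45, adjusted p = 5.69e-04) on 25 and 22 reads against 4, 2, 3 and 7, a call that ended without either untransduced library.

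By the promoter letters shown above, the 24 interferon-stimulated genes with GAAANNGAAA held all 3 kinds. No reads were found for 7, and of the 16 that were tested 10 were higher in untransduced cells than with the IRF2 guides and 6 were not called, ISG15, IFITM1 and BST2 among them. Of the 18 without it, 2 had no reads, and of 13 tested 6 were called higher and SP100 lower. Over all genes tested 1.51% were called higher, and the share called was not tested between these sets.

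**Figure D4:**
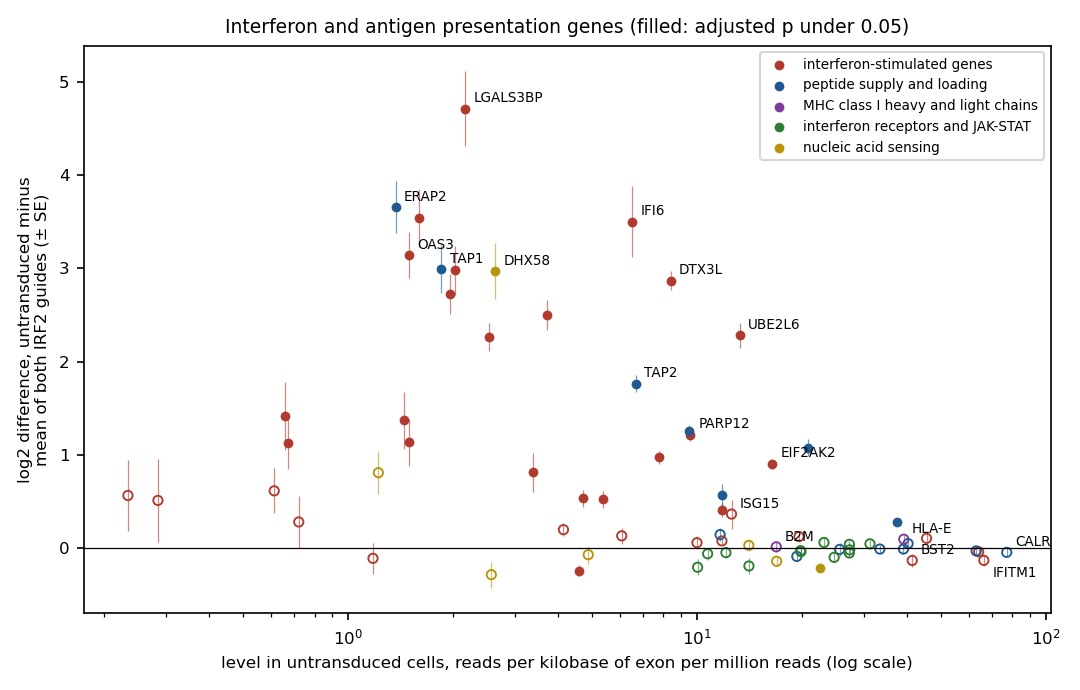
Log2 difference of untransduced cells minus the mean of both IRF2 guides (± SE of the fit) against the level in untransduced cells in RPKM (log scale), 1 point per tested gene with a length and reported here, from 5 lists, filled where the adjusted p is under 0.05. The 13 genes with a difference over 2 lie between 1.37 and 13.2 RPKM, and IFITM1, IFITM2, CALR and CANX, all above 60 RPKM, lie near 0.

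The baseline was also set against all 3 guide groups, and all erythroid genes called were lower in untransduced cells. Of 14665 genes 628 were called (4.28%), 289 higher (1.97%) and 339 lower (2.31%), and against sgAAVS1 alone 697 (4.75%), 262 higher (1.79%) and 435 lower (2.97%). The split of directions moved with the scaling: after quantile normalization it was 443 higher and 319 lower against the 3 groups and 444 and 363 against sgAAVS1, and with library medians aligned 346 and 302 against sgAAVS1. Over the 6 erythroid lists, 5 of 64 genes tested were called against the 3 groups (7.81%), HBM, ALAS2, ZFPM1, MYB and CA1, and 7 of 64 against sgAAVS1 (10.9%), HBZ among them. GATA1 was not called in any of these contrasts (adjusted p = 0.40 against the 3 groups). ALAS2 was lower in untransduced cells by -0.31 ± 0.05 (SE) against the 3 groups (adjusted p = 5.79e-04), a call that ended without untransduced replicate 1, and HBZ by -0.38 ± 0.10 against sgAAVS1 (adjusted p = 0.024), a call that ended without either untransduced library. HBM, which shares exonic bases with HBZ, was lower against the 3 groups (-0.66 ± 0.18, adjusted p = 0.035), a call that ended without either untransduced library. ZFPM1, the cofactor of GATA1, was lower by -0.27 ± 0.06 (adjusted p = 0.0056), a call that ended without untransduced replicate 1, and MYB by -0.15 ± 0.04 (adjusted p = 0.030), a call that ended without either untransduced library and with library medians aligned. Of 18 membrane genes tested 0 were called there in either direction (4 lower and 0 higher at an unadjusted p under 0.05, and 0 called with voom). Of the sgAAVS1 libraries, leaving out replicate 2 raised the calls against the 3 groups to 1421 and those against sgAAVS1 to 1456, and leaving out replicate 1 gave 1070 and 915. Leaving out an untransduced library gave 143 and 140 against the 3 groups, and 183 and 262 against sgAAVS1, and leaving out an sg2-IRF2 library gave 399 and 401 against the 3 groups.

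Some of the 10 largest called differences from sgAAVS1 lay in genes whose reads with the IRF2 guides were close to those of untransduced cells. THBD, thrombomodulin, had 36 and 45 reads, against 0 in both sgAAVS1 libraries and 25, 34, 28 and 23 for the IRF2 guides (adjusted p = 9.49e-11 against sgAAVS1). SNCG, gamma-synuclein, had 164 and 188 reads against 28 and 34 (2.39 ± 0.12, adjusted p = 9.02e-14), and RAB11FIP5, a recycling endosome protein, 396 and 437 against 70 and 105 (2.16 ± 0.09, adjusted p = 1.09e-15). With the IRF2 guides SNCG had 168 to 205 reads and RAB11FIP5 382 to 483.

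Genes called in 1 direction against each guide group were sought after the data had been seen, and 25 were higher (0.17% of genes tested) and 7 lower (0.0477%) in untransduced cells. With no mean-variance trend 0 of these 32 were called (limma), and voom called 26 genes in all. The split moved with the scaling, to 21 and 11 after quantile normalization and 12 and 11 with library medians aligned. The largest called lower was CA1, the carbonic anhydrase of late erythroid cells described above. Its log2 values of 2.89 and 2.67 lay under all 6 guide libraries, which spanned 3.28 (sg2-IRF2) to 4.03 (sgAAVS1). The differences from sgAAVS1, sg1-IRF2 and sg2-IRF2 were -1.14 ± 0.17, -1.17 ± 0.17 and -0.67 ± 0.17 (SE). TCN1, a vitamin B12 carrier, differed by -0.98 ± 0.10, -0.91 ± 0.10 and -0.58 ± 0.10, and IL16, MS4A4A and DHRS2 were among the rest. The call of CA1 against each group ended without either untransduced library, and that of TCN1 without untransduced replicate 1. In all 7, no untransduced value reached those of the guide libraries.

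Among those higher, CDKN1A, the p21 inhibitor of cell cycle kinases, had log2 values of 5.82 and 5.85 in untransduced cells and 5.18 to 5.54 with the guides. ATF3, a factor of the stress response, had 6.17 and 6.12, against 5.70 to 5.83, and PMAIP1, the pro-apoptotic NOXA, 6.12 and 6.15, against 5.67 to 5.83. EPAS1, the hypoxia factor HIF-2 alpha, had 7.65 and 7.72, against 7.32 to 7.51, and GBP2, an interferon-stimulated GTPase, 5.19 and 5.32, against 4.57 to 4.94. The calls of CDKN1A, PMAIP1, EPAS1 and GBP2 against each group ended without either untransduced library, and that of ATF3 without untransduced replicate 1. Those of PMAIP1, EPAS1 and GBP2 also ended with library medians aligned. RASGEF1B, AHNAK2, RAB30, RP1-140K8.5, MME, TUFT1, PHLDA1, KBTBD8, IGF1, ZNF442, OPTN, TSC22D1, CSRNP1, ARVCF, LZTS3, ZBTB43, KIF13B, MYO18B, TGFBR3 and CPEB4 were the others. Without untransduced replicate 1 the count over both directions was 7 in place of 32, and without untransduced replicate 2 it was 4. Leaving out a guide library moved it to 67 and 87 (sgAAVS1 replicates 1 and 2), 17 (sg1-IRF2 replicate 1), and 10 and 12 (sg2-IRF2 replicates 1 and 2).

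**Figure D5:**
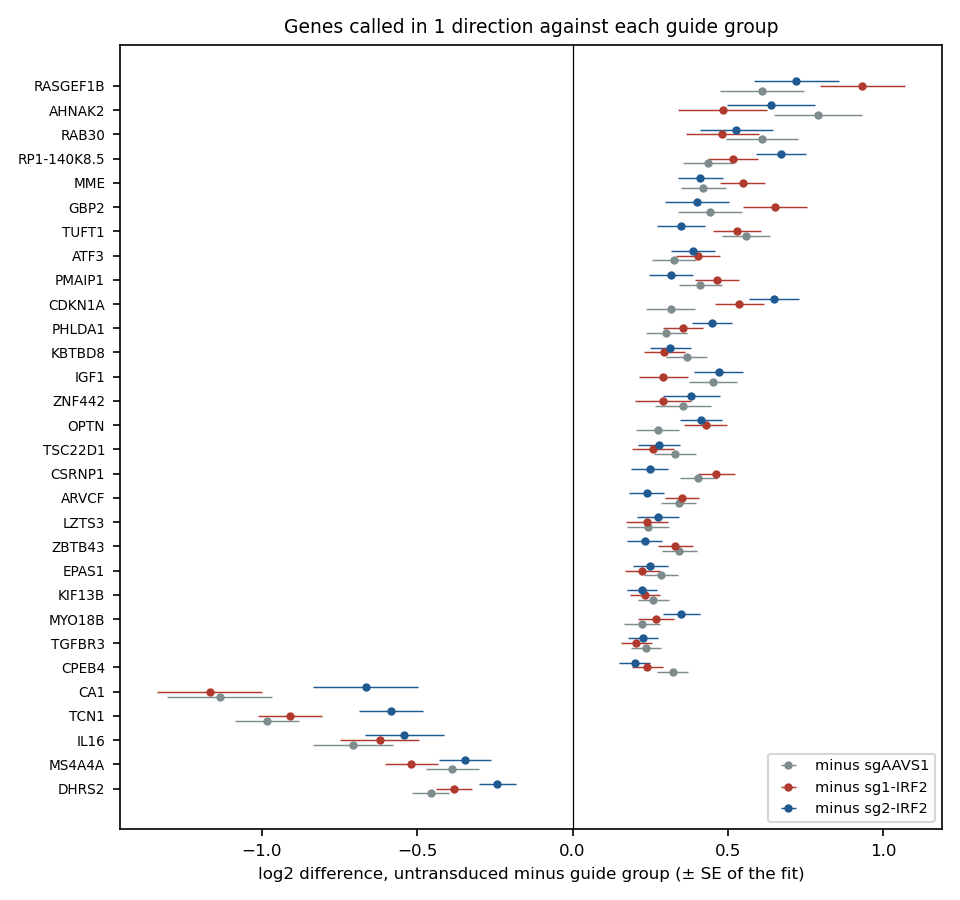
Log2 difference of untransduced cells minus each guide group (± SE of the fit, n = 2 libraries a group) for 30 of the 32 genes called in the same direction against all 3 groups. Most genes called higher lie under 0.7 in each comparison, and CA1 and TCN1 reach -1.17 and -0.98 on the lower side.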

How the data were processed

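The table holds the authors' deposited log2 values for 8 libraries of rRNA-depleted total RNA made with a directional kit, per the labels. Per the submitters' processing notes, cutadapt, Bowtie2 and hg38 were used. Counting tool, strand setting, annotation, versions and duplicate handling were not given in the sources used here. Each value above the minimum was a whole multiple of 1 read (tolerance 0.01, 100% of values), and genes without reads are listed at 0.9 read. Exonic lengths, merged over all annotated transcripts of a gene, came from GENCODE 29 (95.8% of listed genes). Group means were fitted to all 8 libraries with limma 3.58.1 in R 4.3.3 (mean-variance trend, genes with mean log2 at or above 0; residual df 4, prior df 22.4). On simulated counts, 200 of 200 changed genes were recovered against both IRF2 guides, with 11 unchanged genes called. It was 200 against the 3 guide groups, with 15, and 199 against sgAAVS1, with 8, over 14654 genes each. The simulated differences were 1 log2 unit or more, in genes above a minimum of reads. Smaller differences and genes of few reads, as in many calls above, were thus not covered. How recovery depends on a gene's reads or on the size of its difference was not tested. Promoters came from RefSeq. The members and gene lists were chosen with earlier results of these data known. Named genes are the top 20 by value and per length, list members, the 10 largest called differences in each direction and the 9p genes, of which those that the text turns on are given; all 366 list members were examined. Exons of 72 overlap a gene on the opposite strand and of 39 on the same strand. XIST, Y-linked genes and a few other genes are not reported here. Intervals and floors (3 reads) cover counting error only. Alternatives were other filters, a pseudocount of 1 read, no trend, quantile and median scaling, voom, a replicate block and leaving out each library. Python 3.11.15 with pandas 2.3.3 and matplotlib 3.10.9 was used.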

Additional observations from a re-analysis of the deposited data

How the results depend on the processing

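None of 150 calls on single genes changed direction under the alternatives run on them (the filter at a mean log2 of 3 gave values for 84 of them, the fit of only the groups compared for 88); differences that were not called were not followed. Detection moved little, from 16987 genes with reads in both libraries to 15530 with 3 in each and 18731 with reads in either, and the 20 highest genes held 0.386% of reads when ranked per exonic length. With no mean-variance trend the calls were 23 against the 3 guide groups, 54 against both IRF2 guides, 11 against sgAAVS1 and 0 in 1 direction against each group in turn (limma; 251 at an unadjusted p under 0.05, 26 with voom, and 32 with the trend). With no filter they were 649 against both IRF2 guides, 1184 against sgAAVS1 and 95 against each group; with only the groups compared, 835 against both IRF2 guides. Leaving out 1 library gave 140 to 1421 against the 3 groups, 106 to 823 against both IRF2 guides, 183 to 1456 against sgAAVS1 and 4 to 87 against each group. The replicate block gave 537, 328, 641 and 27 calls. Of 150 calls on single genes, 114 were lost with no trend, 79 without untransduced replicate 1, 76 without untransduced replicate 2 and 19 with the replicate block. Between groups, correlations of the deviations of same-numbered replicates ran from -0.11 to 0.30 (sg1-IRF2 with sgAAVS1) over 11449 genes. These values do not settle whether replicate numbers pair the libraries. The cause of these shifts was not tested. Levels under 3 reads are not separable from 0 at this depth.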

Other observations

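Cancer-testis antigens, genes of the germ line that tumours can express, were high in untransduced cells. PRAME had 2208 and 2179 reads (92.1 RPKM), MAGEC2 570 and 583 (45.9), CTAG2 230 and 253 (38.5), MAGEA3 439 and 424 (38.2) and MAGEC1 887 and 906 (33.3). Of 17 listed, 14 had a mean of 10 or more reads, the median was 19.2 RPKM, and CTAG1B had none. MAGEA3 and MAGEA6 are near-identical, so their reads could be split. Against the 3 guide groups 0 of the 15 tested were called with limma, where 4.28% of all genes tested were (0 at an unadjusted p under 0.05 and 0 with voom).

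Genes of BCR-ABL1 signalling were all well read. The adaptor CRKL had 3346 and 3416 reads (101 RPKM) and ranked 31st of all listed genes by the deposited value, the kinase PIM1 had 1806 and 1850 (97.3 RPKM), and ABL1 (61.5) and BCR (22.3) are read whether or not a transcript is the fusion. The STAT5 targets BCL2L1, CISH and SOCS2 had 50.5, 29.1 and 21.4 RPKM. STAT5A was lower in untransduced cells than in the 3 guide groups by -0.20 (adjusted p = 0.0032, limma), a call that ended without untransduced replicate 1. The other 9 were not called, where 4.28% of all genes tested were.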
